A study of Mus musculus with 1024 samples.

Results

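The cells described here were the Cd31- cells of the mouse aorta, divided into fibroblast-like and smooth muscle-like cells that were selected on the measured balance of 8 transcripts. A well was kept when its label was not endothelial, when it held at least 20000 counts over at least 500 genes, and when it had no count of *Cdh5*, the gene of VE-cadherin. For each cell, the mean of ln(1 + counts per 10000) over *Dcn*, *Lum*, *Col1a1* and *Col1a2* was reduced by the same mean over *Acta2*, *Myh11*, *Tagln* and *Cnn1*. Cells with a score above 0 were called fibroblast-like and the others smooth muscle-like. Of 1024 wells in the series, 784 passed the depth filter, and 128 wells (108 past the filter) came from the Cd31- gate. After 3 wells with a *Cdh5* count were set aside, 105 cells remained, of which 35 were fibroblast-like and 70 smooth muscle-like.

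The study profiled single cells of the aorta by Smart-seq2, a full-length, plate-based RNA-seq method, to compare control mice (WT, *amotl2* ec+/ec+) with mice lacking AmotL2 in the endothelium (KO, *amotl2* ec-/ec-). Wells of both genotypes carry one strain label, Amotl2flow/flow / Cdh5-RREert /ROSA26-EYFP, and an age of 3 months, and per the methods the cross was *amotl2* flox/flox with the tamoxifen-inducible Cdh5(PAC)CreERT2 driver and a ROSA26-EYFP reporter. Aortas were enzymatically digested, Cd45+ cells were depleted on beads, and a small number of viable Cd45- Cd31- cells were sorted as controls beside the endothelial cells. There were 2 genotypes and 2 preparations (sort 1 and sort 2) of each, so 4 samples. The *Cdh5* promoter drives the recombinase in endothelial cells, so the deletion was not aimed at either class described here. The mice behind each well are not named in the labels, and the preparation was therefore the replicate. In sort 1, WT and KO cells were on separate plates, so that genotype and plate cannot be told apart there. In sort 2 the genotypes shared a plate.

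Fibroblasts of the outer vessel wall, the adventitia, lay down fibrillar collagen and small proteoglycans and secrete complement proteins, chemokines and growth factors. Smooth muscle cells of the media contract through an actin and myosin apparatus that is set by calcium and cyclic GMP, and they anchor to the elastic layers through integrins. Many genes of the smooth muscle apparatus are switched on by serum response factor with its coactivator myocardin, which act at a short DNA element, the CArG box.

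The scores left a wide gap. Fibroblast-like cells scored from 2.11 to 5.002 and smooth muscle-like cells from -4.33 to -2.22, and 0 cells lay within 2 of the threshold. The cells nearest the threshold on the fibroblast side scored 2.11 and 2.31, and those on the other side -2.22 and -2.42. No cell changed class when each was thinned to 20000 counts. The 3 wells set aside held 38, 5 and 3 *Cdh5* counts, and their scores were -0.06, 4.70 and 4.03. No 2 of the 105 cells had identical counts over the genes. These values were those the cells were chosen by and are given as a description.

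**Figure D1:**
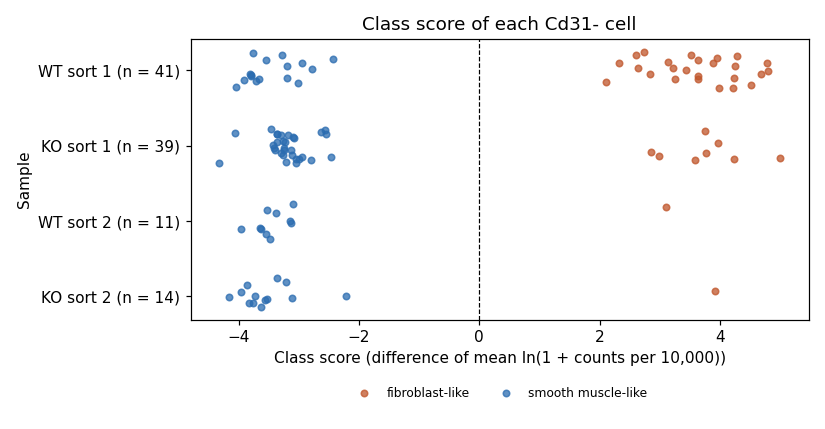
Class score of each of the 105 Cd31- cells (x axis, difference of mean ln(1 + counts per 10000) between the 4 fibroblast and the 4 smooth muscle genes) by sample (y axis). Each point is a cell, coloured by class, and the dashed line is the threshold of 0: no cell lies between -2.22 and 2.11.

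The composition of the gate differed between samples. Fibroblast-like cells made up 25 of 41 cells in WT sort 1 (61.0%, exact binomial 95% interval 44.5 to 75.8%) and 8 of 39 in KO sort 1 (20.5%, 9.30 to 36.5%). In sort 2 they were 1 of 11 cells in WT (9.09%, 0.230 to 41.3%) and 1 of 14 in KO (7.14%, 0.181 to 33.9%). The share was highest in WT sort 1, while WT sort 2 and both KO samples had overlapping intervals. These intervals cover counting error only, and with 2 preparations per genotype the difference between genotypes was not tested.

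Both classes were measured at a like depth. Fibroblast-like cells held 21304 to 510573 counts (median 137872) and smooth muscle-like cells 21370 to 879444 (median 112506). After thinning to 20000 counts a fibroblast-like cell had a median of 2813 genes (2037 to 3422) and a smooth muscle-like cell 2935.5 (1927 to 3866). As counted, the medians were 3939 and 3777.5 genes. Markers of other cells were rare in both classes: the 12 endothelial markers summed to 41.3 to 69.1 CPM (counts scaled to library size) in the class sums of sort 1 and the 12 leukocyte markers to 0.738 to 17.1 CPM. Of the 6 Schwann cell markers 1 reached 10 CPM, *S100b*, which was higher in fibroblast-like cells. All 6 adipocyte markers were at 0 in both classes, and of 6 mesothelial markers 5 were at 0 in fibroblast-like and 6 in smooth muscle-like cells. The reporter EYFP had no count in any of the 105 cells, which allows a share of up to 2.86% of cells with a count.

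*Amotl2*, the targeted gene, was read in both classes. Its level was 85.04 and 119 CPM in fibroblast-like and 34.7 and 36.7 CPM in smooth muscle-like cells, with a count in 25 of 35 and 29 of 70 cells. Over the smooth muscle-like sums, which had cells in all 4 samples, the level scaled over those sums was 37.3 and 18.97 CPM in the 2 WT samples and 36.5 and 125 CPM in the 2 KO samples. The KO minus WT difference was 1.48 on the log2 scale (SE 0.81, edgeR quasi-likelihood test, adjusted *P* = 1.00, n = 2 per genotype), and the 2 genotypes overlapped.

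For the comparison of the classes, counts were summed over the cells of a class in a sample, scaled with TMM factors and expressed as CPM. Only sort 1 had at least 3 cells of each class, so the comparison was made within WT and within KO of sort 1, and values below are in the order WT, KO. A gene was called higher in a class when log2(CPM + 1) differed by at least 2, a 4-fold difference, in both samples and the higher class had at least 10 CPM in both. No test was made, since the cells were divided by expression of the same counts. Of 7487 genes that reached 10 CPM in both samples in either class, 537 (7.17%) were higher in fibroblast-like and 580 (7.75%) in smooth muscle-like cells. The median difference over all 7487 genes was 0.02 in WT and -0.17 in KO. CPM values are not corrected for gene length, so levels are compared between classes and not between genes. The log2(CPM + 1) scale understates the difference of genes with low levels, and where a class had 0 counts the fold is a lower bound at 3 counts in that sum.

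The 8 transcripts of the score were set aside from these counts. *Dcn*, which encodes the collagen-binding proteoglycan decorin, was at 33528 and 27328 CPM in fibroblast-like and 4.06 and 50.5 CPM in smooth muscle-like cells. *Lum*, for the related lumican, was at 2289.6 and 4298 CPM in fibroblast-like and 0 and 7.56 CPM in smooth muscle-like cells. Both were nearly class-restricted, although a *Dcn* count was found in 7 of 16 and 14 of 31 smooth muscle-like cells of WT and KO sort 1, with at most 794 CPM in a cell. *Col1a1* and *Col1a2*, the chains of type I collagen, differed in degree only. *Col1a1* was at 2889 and 7626 CPM in fibroblast-like and 289 and 550.3 CPM in smooth muscle-like cells, 9.99-fold and 13.9-fold higher in the first. *Col1a2* was at 5782 and 9442 CPM in fibroblast-like and 833 and 1059 CPM in smooth muscle-like cells, 6.94-fold and 8.92-fold higher. Every one of the 70 smooth muscle-like cells had a count of both collagen chains.

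Of the smooth muscle genes of the score, *Acta2*, smooth muscle alpha-actin, was at 30035 and 32907 CPM in smooth muscle-like and 56.8 and 330.2 CPM in fibroblast-like cells. *Myh11*, the smooth muscle myosin heavy chain, was at 4306 and 4948 CPM in smooth muscle-like and 0.538 and 39.6 CPM in fibroblast-like cells. *Tagln*, transgelin, was at 5134 and 5169.8 CPM in smooth muscle-like and 0.807 and 32.5 CPM in fibroblast-like cells, and *Cnn1*, calponin, at 2598 and 2835 CPM in smooth muscle-like and 0 and 20.4 CPM in fibroblast-like cells. All 4 were higher in fibroblast-like cells of KO than of WT, while remaining far under the smooth muscle-like level.

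**Figure D2:**
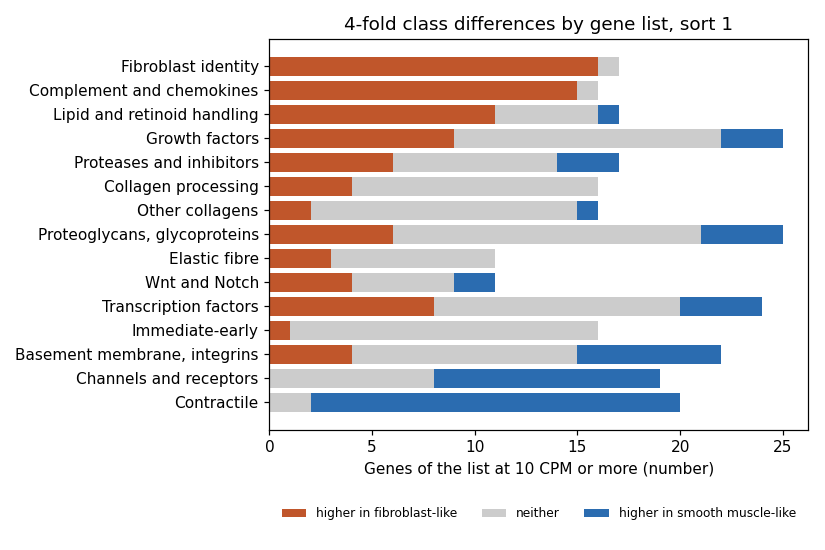
Number of genes (x axis) in each of 15 gene lists (y axis) that reached 10 CPM in sort 1, split into those at least 4-fold higher in fibroblast-like cells in both WT and KO, those higher in smooth muscle-like cells, and neither. Fibroblast identity and complement genes lie almost wholly on the fibroblast side, contractile genes on the smooth muscle side, and 81.2% of the other collagens are in neither group, against 85.1% of all genes.

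Fibroblast identity genes outside the score were higher in fibroblast-like cells. Of 18 listed genes 17 reached 10 CPM, and 16 of these were higher in fibroblast-like and 0 in smooth muscle-like cells, with a median log2 difference of 9.12 in WT and 7.07 in KO (8.97 and 7.25 with sums at 0 held at 3 counts). *Pi16*, a peptidase inhibitor known from adventitial fibroblasts, was at 2298 and 1718 CPM in fibroblast-like and 0 and 0.135 CPM in smooth muscle-like cells. It was counted in 35 of 35 fibroblast-like and 1 of 70 smooth muscle-like cells (gene at chr17:29317680-29330593, + strand, GRCm38). *Cd34*, a sialomucin of stromal progenitors, was at 2817 and 2058 CPM in fibroblast-like and 0.738 and 0.945 CPM in smooth muscle-like cells. The levels of both classes were far apart in each genotype, with all fibroblast-like cells positive for both genes.

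*Pdgfra*, the PDGF receptor of fibroblasts, was at 581 and 421 CPM in fibroblast-like and 3.69 and 10.1 CPM in smooth muscle-like cells, 158-fold and 41.6-fold higher in fibroblast-like cells. *Ly6a*, which encodes the surface antigen Sca-1, was at 2302 and 1358 CPM in fibroblast-like and 0 and 1.49 CPM in smooth muscle-like cells. *Dpt*, for the matrix protein dermatopontin, was at 1261 and 2032 CPM in fibroblast-like and 0.369 and 2.84 CPM in smooth muscle-like cells. All 3 genes were low or at 0 in smooth muscle-like cells of both genotypes. *Scara5*, a ferritin receptor, was at 1264 and 719 CPM in fibroblast-like and 0 and 0.945 CPM in smooth muscle-like cells, and it was counted in 32 of 35 against 1 of 70 cells. *Gsn*, the actin-severing protein gelsolin, was the exception in kind: it was at 19156 and 12599 CPM in fibroblast-like and 603 and 673 CPM in smooth muscle-like cells and was counted in 68 of 70 smooth muscle-like cells, so that it differed by level rather than by presence. *Mfap5*, a microfibril protein, likewise had 2404 and 1725 CPM in fibroblast-like and 281 and 269 CPM in smooth muscle-like cells. *Islr* was in neither group, at 657 and 809 CPM in fibroblast-like and 219 and 371 CPM in smooth muscle-like cells.

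The complement and chemokine list had 16 genes at 10 CPM, of which 15 were higher in fibroblast-like and 0 in smooth muscle-like cells. Its median log2 difference was 6.49 in WT and 5.36 in KO (6.42 and 6.09 at the floor), and its summed level was 24125 and 18502 CPM in fibroblast-like and 422 and 577 CPM in smooth muscle-like cells. Its members ran from the first complex of the complement cascade to the membrane attack complex. *C1s1*, a serine protease of the first complex, was at 755 and 488 CPM in fibroblast-like and 12.2 and 17.6 CPM in smooth muscle-like cells. *C2* was at 406 and 315 CPM in fibroblast-like and 0 and 0.270 CPM in smooth muscle-like cells. *C3*, the component on which the pathways converge, was at 1930.3 and 851 CPM in fibroblast-like and 0 and 0.405 CPM in smooth muscle-like cells, with a count in 30 of 35 against 2 of 70 cells. *C2* and *C3* were close to absent from smooth muscle-like cells, while *C1s1* was read there at a low level. *C7*, a part of the membrane attack complex, was at 2237 and 1017 CPM in fibroblast-like and 0 and 1.62 CPM in smooth muscle-like cells.

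An inhibitor and a further component of the cascade were also on the fibroblast side. *Serping1*, the C1 inhibitor, was at 9290.2 and 6519 CPM in fibroblast-like and 246 and 330.5 CPM in smooth muscle-like cells, 37.7-fold and 19.7-fold higher, and *Cfb*, factor B of the alternative pathway, was 278-fold and 305-fold higher. Among secreted signals, *Cxcl12*, a chemokine for CXCR4-bearing cells, was at 1599 and 1106 CPM in fibroblast-like and 33.6 and 128 CPM in smooth muscle-like cells. It was present in both classes at unequal levels. *Il33*, an alarmin cytokine, was at 540.4 and 440.2 CPM in fibroblast-like cells and at 0 in both smooth muscle-like sums, where 0 of 70 cells allows a share of up to 4.29%. *Ccl11*, eotaxin, was at 588 and 207 CPM in fibroblast-like cells and at 0 in both smooth muscle-like sums, and its fibroblast-like level came from 15 of 35 cells. *Csf1*, the macrophage growth factor, was the gene in neither group, at 126 and 112 CPM in fibroblast-like and 44.3 and 14.2 CPM in smooth muscle-like cells.

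Lipid and retinoid genes were mostly on the fibroblast side, with 11 of 17 genes higher in fibroblast-like and 1 in smooth muscle-like cells (median 4.38 in WT and 5.74 in KO). *Abca8a*, a lipid transporter, was at 905 and 614 CPM in fibroblast-like cells and at 0 in both smooth muscle-like sums. *Cygb*, cytoglobin, was at 1585 and 1351 CPM in fibroblast-like and 0 and 0.135 CPM in smooth muscle-like cells. *Aldh1a1*, which makes retinoic acid, was at 368 and 317 CPM in fibroblast-like and 0 and 0.270 CPM in smooth muscle-like cells, and *Lpl*, lipoprotein lipase, was at 400.4 and 479.9 CPM in fibroblast-like and 0 and 1.08 CPM in smooth muscle-like cells. These 4 genes were close to absent from smooth muscle-like cells. *Fabp4*, a fatty acid carrier, was the gene on the other side, at 193 and 49.3 CPM in smooth muscle-like and 13.99 and 0.550 CPM in fibroblast-like cells. *Sod3*, the extracellular superoxide dismutase, was at 1405 and 789 CPM in fibroblast-like and 2219.6 and 1357 CPM in smooth muscle-like cells, and it was counted in all 35 and all 70 cells.

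Among 16 other collagens, 2 were higher in fibroblast-like and 1 in smooth muscle-like cells, and 81.2% were in neither group, against 85.1% of all genes. *Col14a1*, a fibril-associated collagen, was at 1319 and 2057 CPM in fibroblast-like and 98.5 and 54.2 CPM in smooth muscle-like cells, 13.4-fold and 37.98-fold higher in fibroblast-like cells, and *Col12a1*, of the same family, was 7.21-fold and 4.11-fold higher. *Col18a1*, a basement membrane collagen, was at 727 and 1409.8 CPM in smooth muscle-like and 45.5 and 60.5 CPM in fibroblast-like cells, 15.98-fold and 23.3-fold higher in smooth muscle-like cells. *Col3a1*, the fibrillar partner of type I collagen, was at 2499.5 and 8613 CPM in fibroblast-like and 900.3 and 1334 CPM in smooth muscle-like cells and was 2.78-fold and 6.46-fold higher in fibroblast-like cells, under 4-fold in WT only. The 3 genes of type VI collagen and the type V genes *Col5a1* and *Col5a2* were in neither group. A further type V gene, *Col5a3*, missed 10 CPM in KO. It was at 15.6 and 8.25 CPM in fibroblast-like cells and at 0 in both smooth muscle-like sums.

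Of 16 collagen-processing genes at 10 CPM, 4 were higher in fibroblast-like and 0 in smooth muscle-like cells. These were *Pcolce* and *Pcolce2*, enhancers of C-propeptide cleavage, *Bmp1*, the C-proteinase, and *Adamts2*, the N-proteinase. *Pcolce* was at 3123 and 2497 CPM in fibroblast-like and 136 and 31.9 CPM in smooth muscle-like cells, 22.9-fold and 78.4-fold higher. *Adamts2* was at 934 and 1260.2 CPM in fibroblast-like and 30.2 and 89.7 CPM in smooth muscle-like cells, 30.9-fold and 14.1-fold higher. The hydroxylases and cross-linking enzymes measured were in neither group, among them *P4hb* at 1175 and 1226 CPM in fibroblast-like and 594 and 911 CPM in smooth muscle-like cells and *Lox*, lysyl oxidase, at 404 and 385 CPM in fibroblast-like and 162 and 160.2 CPM in smooth muscle-like cells.

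Proteoglycans and matrix glycoproteins split in both directions, with 6 of 25 genes higher in fibroblast-like and 4 in smooth muscle-like cells. *Bgn*, biglycan, was at 8131 and 7735 CPM in fibroblast-like and 7195 and 7417 CPM in smooth muscle-like cells, and its levels in the classes lay 1.13-fold (WT) and 1.04-fold (KO) apart. *Mgp*, matrix Gla protein, an inhibitor of calcification, was at 6099.9 and 2739 CPM in fibroblast-like and 6621 and 2960.3 CPM in smooth muscle-like cells. Neither gene separated the classes. In sort 1 the *Mgp* level was lower in KO than in WT in both classes. Smooth muscle-like cells of sort 2 had the opposite order, the KO sum holding 5614 CPM of *Mgp* against 3689 CPM for WT. The lone fibroblast-like cells of sort 2 held 2030 CPM (KO) and 2297 CPM (WT). The *Mgp* order of the genotypes in smooth muscle-like cells thus differed between the sorts.

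*Fmod*, fibromodulin, was at 1084 and 2073 CPM in fibroblast-like and 0.369 and 0.675 CPM in smooth muscle-like cells. *Fbln1*, fibulin-1, was at 2402 and 3261 CPM in fibroblast-like and 0.369 and 1.49 CPM in smooth muscle-like cells and was counted in 35 of 35 fibroblast-like cells. *Podn*, a leucine-rich proteoglycan, was at 435 and 467 CPM in fibroblast-like and 2.95 and 0.540 CPM in smooth muscle-like cells. On the smooth muscle side were *Postn*, *Tnc*, *Nov* and *Thbs1*, all matricellular proteins that act on cells more than they build fibrils. *Postn*, periostin, was at 2240.2 and 1844 CPM in smooth muscle-like and 26.6 and 7.15 CPM in fibroblast-like cells, 84.1-fold and 258-fold higher. *Tnc*, tenascin-C, was at 310.2 and 190.4 CPM in smooth muscle-like cells and at 0 in both fibroblast-like sums, at least 384-fold and 115-fold higher, with a count in 58 of 70 smooth muscle-like and 0 of 35 fibroblast-like cells. The *Thbs1* sum came from 7 of 70 smooth muscle-like cells.

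Of 11 elastic fibre genes, 3 were higher in fibroblast-like and 0 in smooth muscle-like cells. The other 72.7% were in neither group, against 85.1% of all genes. *Eln*, elastin, was at 1010.2 and 1841 CPM in smooth muscle-like and 245 and 941 CPM in fibroblast-like cells, 4.13-fold and 1.96-fold higher in smooth muscle-like cells and past 4-fold in WT only. *Fbn1*, fibrillin-1, was 5.06-fold and 4.88-fold higher in fibroblast-like cells, and *Mfap4*, a microfibril-associated protein, 6.17-fold and 12.2-fold higher. *Fbln5*, fibulin-5, which assembles elastin, was at 1699 and 2019.6 CPM in fibroblast-like and 932 and 1234 CPM in smooth muscle-like cells, with a count in 34 of 35 and 69 of 70 cells.

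Basement membrane chains and integrins differed in subunit between the classes, 4 of 22 being higher in fibroblast-like and 7 in smooth muscle-like cells. *Lama2*, the laminin alpha-2 chain, was at 318 and 491 CPM in fibroblast-like and 16.97 and 10.8 CPM in smooth muscle-like cells, 18.7-fold and 45.5-fold higher in fibroblast-like cells. *Lama5*, the alpha-5 chain, was at 126 and 106 CPM in smooth muscle-like and 0 and 1.10 CPM in fibroblast-like cells. These chains were thus on opposite sides. *Itga8*, the integrin alpha-8 chain, was at 2809 and 3245 CPM in smooth muscle-like and 20.5 and 28.6 CPM in fibroblast-like cells, 137-fold and 113-fold higher in smooth muscle-like cells and counted in all 70 of them. *Itga11*, a collagen-binding integrin chain, was at 34.4 and 22.6 CPM in fibroblast-like cells and at 0 in both smooth muscle-like sums, with no count in any single smooth muscle-like cell. *Itga7*, a laminin-binding chain, was at 84.8 and 191 CPM in smooth muscle-like cells and at 0 in both fibroblast-like sums, with no count in 35 cells, which allows a share of up to 8.57%. *Lama4* and *Itga1*, further alpha chains, were in neither group. *Npnt*, nephronectin, which is a ligand of the alpha-8 integrin, was at 829 and 1586 CPM in smooth muscle-like and 4.57 and 11.6 CPM in fibroblast-like cells, 181-fold and 137-fold higher in smooth muscle-like cells. A gene of the ligand and a gene of its receptor were thus both on the smooth muscle side.

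Of 17 proteases and inhibitors, 6 were higher in fibroblast-like and 3 in smooth muscle-like cells. *Mmp3*, stromelysin-1, was at 2698 and 1714 CPM in fibroblast-like cells and at 0 in both smooth muscle-like sums, at least 2438-fold and 4231-fold higher (gene at chr9:7445822-7455975, + strand). It was counted in 18 of 35 fibroblast-like cells and in 1 of 70 smooth muscle-like cells, a KO cell of sort 2 with 214.7 CPM. *Mmp2*, gelatinase A, was at 1248 and 2536 CPM in fibroblast-like and 0.369 and 6.75 CPM in smooth muscle-like cells and was counted in all 35. *Ctsk*, the collagen-degrading cathepsin K, was at 840.2 and 646 CPM in fibroblast-like and 0 and 0.675 CPM in smooth muscle-like cells. These 3 collagen- and matrix-degrading enzymes were all on the fibroblast side. *Serpine2*, a thrombin and plasminogen activator inhibitor, was at 1854 and 2191 CPM in smooth muscle-like and 126 and 21.5 CPM in fibroblast-like cells, 14.7-fold and 102-fold higher in smooth muscle-like cells, and *Timp4* was on the same side. *Timp3*, the matrix-bound metalloproteinase inhibitor, was in neither group, at 2522 and 1044 CPM in fibroblast-like and 1619 and 1313 CPM in smooth muscle-like cells.

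Of 20 contractile genes, all at 10 CPM, 18 were higher in smooth muscle-like and 0 in fibroblast-like cells, with a median of -4.32 in WT and -4.22 in KO (-4.38 and -4.29 at the floor). *Myl9*, the regulatory myosin light chain, was at 7600.3 and 7862 CPM in smooth muscle-like and 60.3 and 163 CPM in fibroblast-like cells, 126-fold and 48.1-fold higher. *Mylk*, the kinase that phosphorylates it, was 146-fold and 37.9-fold higher, at 1572 and 1418 CPM in smooth muscle-like and 10.8 and 37.4 CPM in fibroblast-like cells. *Tpm2*, beta-tropomyosin, was at 2658 and 2504 CPM in smooth muscle-like and 4.84 and 42.4 CPM in fibroblast-like cells. In each of these 3 the KO fibroblast-like sum was above the WT sum. *Flna*, filamin A, an actin cross-linker, was at 5143 and 6134 CPM in smooth muscle-like and 228 and 208 CPM in fibroblast-like cells, 22.6-fold and 29.5-fold higher. Filamin did not share that pattern. *Myl6*, the essential light chain shared with non-muscle myosin, was counted in all cells of both classes and was 6.85-fold and 7.27-fold higher. The 2 genes in neither group, *Tln1* (talin-1) and *Pdlim7*, were also higher in smooth muscle-like cells but under 4-fold in 1 sample, *Tln1* by 5.25-fold and 3.65-fold and *Pdlim7* by 3.12-fold and 5.11-fold.

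Ion channels, receptors and second-messenger enzymes had 11 of 19 genes higher in smooth muscle-like and 0 in fibroblast-like cells. *Kcnmb1*, the beta-1 subunit of the large-conductance potassium channel, was at 363 and 290.4 CPM in smooth muscle-like and 0 and 2.75 CPM in fibroblast-like cells and was counted in 70 of 70 against 1 of 35 cells. *Gucy1a3* and *Gucy1b3* encode the subunits of guanylate cyclase, the nitric oxide receptor. *Gucy1a3* was at 672 and 614 CPM in smooth muscle-like and 7.27 and 2.75 CPM in fibroblast-like cells, and *Gucy1b3* at 229.8 and 133 CPM in smooth muscle-like and 4.84 and 1.65 CPM in fibroblast-like cells. *Ryr2* and *Cacnb2*, of calcium release and entry, had no count in fibroblast-like cells. *Abcc9* and *Kcnj8*, the subunits of the vascular ATP-sensitive potassium channel that are often used as pericyte markers, were in neither group, *Abcc9* at 399 and 675 CPM in fibroblast-like and 395 and 245 CPM in smooth muscle-like cells and *Kcnj8* at 131 and 386 CPM in fibroblast-like and 71.2 and 75.9 CPM in smooth muscle-like cells.

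*Rgs5*, a regulator of G-protein signalling and a mural cell marker, was at 2317 and 1499 CPM in smooth muscle-like and 20.7 and 0.550 CPM in fibroblast-like cells. Of 6 pericyte markers at 10 CPM, 3 were higher in smooth muscle-like cells, *Rgs5*, *Cspg4* and *Cox4i2*, and 1, *Ndufa4l2*, in fibroblast-like cells. *Cox4i2* was counted in only 8 of 70 smooth muscle-like cells, and their sort 2 sums held 1.11 CPM (WT) and 0 CPM (KO). *Cspg4*, the proteoglycan NG2, was at 414 and 665 CPM in smooth muscle-like and 0 and 4.40 CPM in fibroblast-like cells and was counted in all 70 smooth muscle-like cells. The markers *Vtn* and *Higd1b* did not reach 10 CPM, and 1 endothelial marker, *Esam*, was at 25.8 and 53.3 CPM in smooth muscle-like and 0.269 and 0 CPM in fibroblast-like cells.

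Further genes were among the 12 with the largest difference in each direction. On the smooth muscle side these included *Mcam*, the adhesion molecule CD146, at 425 and 829.9 CPM in smooth muscle-like and 0 and 2.20 CPM in fibroblast-like cells (gene at chr9:44134469-44142727, + strand). *Lmcd1*, a LIM domain protein, was at 798 and 1006 CPM in smooth muscle-like and 0 and 4.95 CPM in fibroblast-like cells. *Thsd4*, *Tes*, *Sncg*, *Ptprz1*, E030013I19Rik, *Asb2* and *Rbpms2* completed the 12 with *Tnc*, *Npnt* and *Cspg4*, and all 7 had 0 counts in the WT fibroblast-like sum. On the fibroblast side, *Svep1*, a large adhesion protein, was at 1020.2 and 1266 CPM in fibroblast-like cells and at 0 in both smooth muscle-like sums, at least 922-fold and 3124-fold higher. *Inmt*, a methyltransferase, was at 1193 and 844 CPM in fibroblast-like cells and at 0 in both smooth muscle-like sums. *Igfbp6*, which binds IGF-II, and *Sfrp4*, a secreted Wnt antagonist, were the other genes of the 12 not yet described, *Sfrp4* at 1072 and 1880.3 CPM in fibroblast-like and 0 and 0.135 CPM in smooth muscle-like cells.

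Transcription factors followed the classes in 12 of 24 genes at 10 CPM, 8 higher in fibroblast-like and 4 in smooth muscle-like cells. *Myocd*, myocardin, was at 342 and 389 CPM in smooth muscle-like and 0 and 3.30 CPM in fibroblast-like cells, with a count in 67 of 70 against 3 of 35 cells. *Srf*, its partner, was at 28.03 and 27.8 CPM in smooth muscle-like and 0.269 and 0 CPM in fibroblast-like cells. *Foxc1* and *Foxc2*, forkhead factors of vascular mesenchyme, were the other 2. *Ebf2* was at 94.5 and 126 CPM in fibroblast-like cells and at 0 in both smooth muscle-like sums, and *Meox2*, a mesenchymal homeobox factor, at 100.6 and 58.3 CPM in fibroblast-like cells and at 0 in both smooth muscle-like sums. *Prrx1*, *Twist2*, *Tshz2*, *Klf4*, *Creb3l1* and *Sox9* were also higher in fibroblast-like cells. *Zeb1* and *Gata6* were in neither group.

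Growth factor genes had 9 of 25 higher in fibroblast-like and 3 in smooth muscle-like cells. *Igf1* was at 473 and 844 CPM in fibroblast-like and 0.369 and 1.49 CPM in smooth muscle-like cells, and *Bmp4* at 229.8 and 256 CPM in fibroblast-like and 0 and 0.135 CPM in smooth muscle-like cells. *Fgf7*, *Gdf10*, *Figf* (VEGF-D), *Angptl1*, *Angptl4*, *Kitl* and *Igfbp4* were on the same side. *Pdgfa*, a ligand of the receptor encoded by *Pdgfra*, was at 133 and 136 CPM in smooth muscle-like and 3.50 and 18.7 CPM in fibroblast-like cells, 37.95-fold and 7.25-fold higher in smooth muscle-like cells. *Fgf1* and *Igfbp2* joined it. The ligand gene *Pdgfa* and the receptor gene *Pdgfra* were thus on opposite sides. Of 11 Wnt and Notch genes 4 were higher in fibroblast-like cells, *Wnt2*, *Wnt5a*, *Sfrp2* and *Sfrp4*, and 2 in smooth muscle-like cells, the receptor *Notch3* and the target *Heyl*. The *Wnt2* counts came from 3 of 35 fibroblast-like cells. *Heyl* was at 366 and 487 CPM in smooth muscle-like and 67.3 and 17.6 CPM in fibroblast-like cells, 5.44-fold and 27.6-fold higher in smooth muscle-like cells.

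Since *Srf* and *Myocd* were on the smooth muscle side, RefSeq promoter windows (250 bases before to 50 after a gene start, GRCm38.p6) were searched for the CArG box. Only exact matches were taken, 10 bases that read CC, then A or T throughout, then GG. Variants of the box were not searched for. The box reads the same on both strands, so that a search of 1 strand covers the other. It was present in 535 of 32851 promoters (1.63%), and by gene in 95 of 5754 tested genes that had a window (1.65%). Among genes higher in smooth muscle-like cells, 21 of 440 (4.77%) held it, against 4 of 387 (1.03%) of those higher in fibroblast-like cells and 70 of 4927 (1.42%) of those in neither group. In the contractile list 3 of 19 genes did, *Myl6*, *Myl9* and *Vcl*. The following are the windows of these 3, of *Srf* itself, which held 2 boxes, and of *Lmcd1* and *Asb2* from the 12 leading smooth muscle genes. For contrast *Lama2*, a fibroblast-side gene with a box, is given last. Capitals mark the box, and up to 50 bases on each side are shown, with none past the gene start or outside the window, 5′ to 3′ on the strand of the gene.
Myl9 (chr2:156775253-156775362, + strand): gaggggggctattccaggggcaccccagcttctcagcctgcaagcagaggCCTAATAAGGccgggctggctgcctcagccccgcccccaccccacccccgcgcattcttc
Myl6 (chr10:128493010-128493109, - strand): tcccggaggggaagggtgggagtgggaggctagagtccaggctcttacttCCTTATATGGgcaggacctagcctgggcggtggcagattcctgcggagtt
Vcl (chr14:20929148-20929230, + strand): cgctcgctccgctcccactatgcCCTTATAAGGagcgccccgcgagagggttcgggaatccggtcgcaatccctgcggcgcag
Srf (chr17:46556185-46556294, - strand): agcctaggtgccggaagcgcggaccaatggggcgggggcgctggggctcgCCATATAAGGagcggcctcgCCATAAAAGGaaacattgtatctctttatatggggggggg
Lmcd1 (chr6:112273508-112273602, + strand): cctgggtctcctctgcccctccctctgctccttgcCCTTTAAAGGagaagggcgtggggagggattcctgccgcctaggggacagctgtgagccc
Asb2 (chr12:103356006-103356115, - strand): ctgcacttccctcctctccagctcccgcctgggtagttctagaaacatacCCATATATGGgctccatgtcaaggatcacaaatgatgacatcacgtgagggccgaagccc
Lama2 (chr10:27616943-27617031, - strand): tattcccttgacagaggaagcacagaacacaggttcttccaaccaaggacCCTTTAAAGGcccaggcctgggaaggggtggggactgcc

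The first base of the box lay 161 bases before the start in *Myl9*, 50 in *Myl6* and 227 in *Vcl*. In *Srf* the boxes began 82 and 62 bases before the start, in *Lmcd1* 215, in *Asb2* 64 and in *Lama2* 39. A match is a description of these letters and does not show that the site is used. The other 16 contractile genes with a window had no exact match in it, and the windows of *Tagln*, *Myh11*, *Dcn*, *Lum* and *Col1a1* were not analysed here. Of the 4 smooth muscle score genes 2 had a window, and 0 of these held an exact match. Since variants were not searched for, a gene without a match may still hold a CArG element. In other lists an exact match was held by 0 of 19 channel and receptor genes, 0 of 11 fibroblast identity genes and 2 of 14 immediate-early genes (14.3%).

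**Figure D3:**
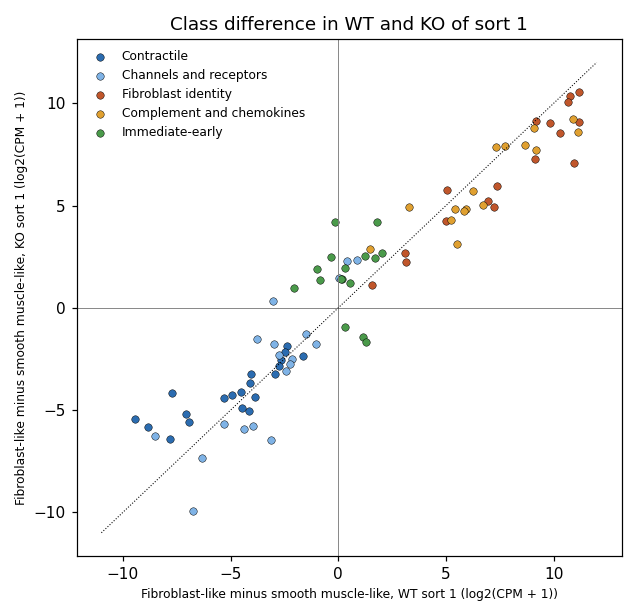
Difference between the classes, fibroblast-like minus smooth muscle-like, on the log2(CPM + 1) scale in WT sort 1 (x axis) and KO sort 1 (y axis). Each point is a gene of 1 of 5 lists at 10 CPM or more, and the dotted line marks equal differences: 1 of 17 identity, 4 of 16 complement, 14 of 20 contractile, 9 of 19 channel and 13 of 16 immediate-early genes lie above it, against 42.8% of all genes tested.

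Sort 2 had not been used for these calls and gave 1 fibroblast-like cell per genotype, so only the direction was read, on CPM without scaling factors. Of the 537 fibroblast-side genes, the single cell was above the smooth muscle-like sum for 289 (53.8%) in WT and 346 (64.4%) in KO, against 30.2% and 33.5% of all 7487 genes. Of the 580 smooth muscle-side genes, the sum was above the single cell for 525 (90.5%) and 505 (87.1%), against 66.1% and 63.3% of all genes. A single cell gives many genes no count, so the shares over all genes are the background for both lists.

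Cells of a class were compared after thinning each to 20000 counts. Of 93 fibroblast-side genes of the lists and of the leading 12, 54 (58.1%) had a count in 20 to 80% of fibroblast-like cells, against 73.2% of all 5750 genes at 10 CPM in that class. For smooth muscle-side genes it was 31 of 67 (46.3%), against 69.1% of 6217 genes in smooth muscle-like cells. Partial detection was thus common over all genes at this depth. *Mmp3* was counted in 13 of 25 WT and 3 of 8 KO fibroblast-like cells of sort 1 and in both cells of sort 2. Its level in positive cells ran from 71.2 to 15232 CPM (median 2582). *Fmod* was counted in 13 of 25 and 4 of 8 cells and in neither cell of sort 2, with a median of 1322 CPM where present. As counted, 12 of the 35 cells had both genes, 6 only *Mmp3*, 5 only *Fmod* and 12 neither. *Ccl11*, *Efemp1* and *Has1* were present in 15, 17 and 15 cells.

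Smooth muscle-like cells were alike in the core contractile genes, *Myl9*, *Mylk*, *Tpm1* and *Flna* being counted in all 70, and differed in others. *Rgs5* was counted in 9 of 16 WT and 22 of 31 KO cells of sort 1, and in 5 of 10 and 6 of 13 cells of sort 2. Where present it ran from 1.14 to 12937 CPM with a median of 1262. *Actg2*, enteric gamma-actin, was counted in 39 of 70 cells (median 574 CPM where present), and *Des*, the intermediate filament desmin, in 21 of 70 (median 418 CPM). All 4 samples held cells with and without each of these 3 genes. *Rgs5* and *Actg2* occurred together in 25 cells, *Rgs5* alone in 17, *Actg2* alone in 14 and neither in 14. *Rgs5* and *Des* occurred together in 16 cells, *Rgs5* alone in 26, *Des* alone in 5 and neither in 23. These pairs were chosen after the values were seen and no test was made.

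**Figure D4:**
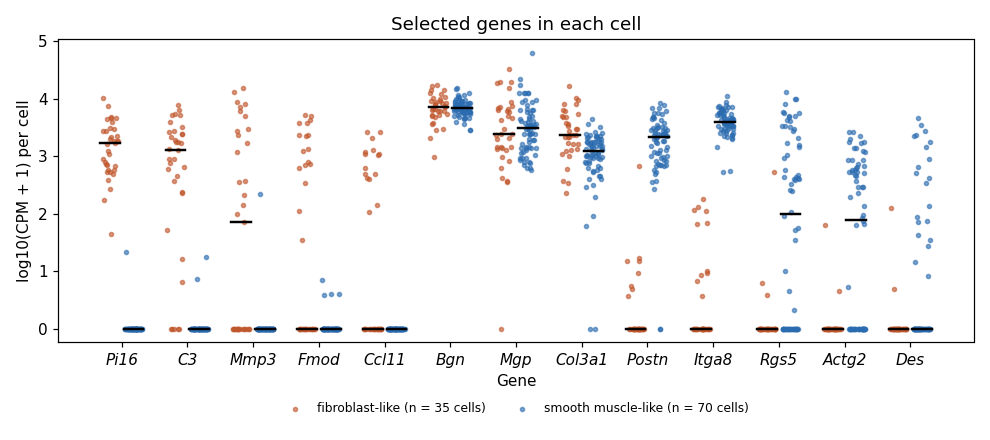
Level of 13 genes (x axis) in each cell as log10(CPM + 1) (y axis), for 35 fibroblast-like and 70 smooth muscle-like cells, with the median of each class as a black bar. *Pi16* is counted in 35 of 35 and *C3* in 30 of 35 fibroblast-like cells, against 1 and 2 of 70 smooth muscle-like cells, *Mmp3*, *Fmod* and *Ccl11* are present in a part of the fibroblast-like cells, *Bgn*, *Mgp* and *Col3a1* are shared, and *Rgs5*, *Actg2* and *Des* are split among smooth muscle-like cells.

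The genotypes were compared within each class. In smooth muscle-like cells, with 2 sums per genotype, edgeR's quasi-likelihood test called 0 of 8985 genes (0%) at an adjusted *P* under 0.05, with 309 genes at an unadjusted *P* under 0.05, while DESeq2 called 11. The biological coefficient of variation between preparations was 0.683. In fibroblast-like cells only sort 1 gave a sum, from 25 WT and 8 KO cells, and there was no replicate for a test. Of 8671 genes at 10 CPM in either sum, 2444 (28.2%) were at least 4-fold apart: 896 (10.3%) higher and 1548 (17.9%) lower in KO.

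Immediate-early genes were at a high level in the KO fibroblast-like cells of sort 1. Between the classes, 1 of the 16 genes, *Jun*, was higher in fibroblast-like and 0 in smooth muscle-like cells (median 0.30 in WT and 1.65 in KO). The 16 genes, which are switched on quickly by stimulation, summed per cell to 9418 to 57728 CPM (median 27959) in the 8 KO cells and to 636 to 34520.2 CPM (median 7723) in the 25 WT cells of sort 1. The single cells of sort 2 had 12405 CPM (WT) and 10818 CPM (KO), so the KO cell of sort 2 was within the WT range. In smooth muscle-like cells the medians were 3188 and 8615 CPM in WT and KO of sort 1 and 6443 and 3188 CPM in sort 2. The order of the genotypes in smooth muscle-like cells thus differed between the sorts. In the sums, 7 of the 16 genes were at least 4-fold higher in KO fibroblast-like cells and 1 at least 4-fold lower, against 10.3% and 17.9% of all genes. The 7 were *Fosb*, *Junb*, *Atf3*, *Ier2*, *Dusp1*, *Nr4a1* and *Btg2*. *Nr4a1*, an orphan nuclear receptor, was at 513 and 3284 CPM, and the stress factor *Atf3* at 283 and 1655 CPM. *Fos*, under the 4-fold limit, was at 4116 and 10184 CPM in fibroblast-like cells. The heat-shock genes *Hspa1a* and *Hspa1b*, near-identical copies between which reads may be split, were lower in the KO sum, *Hspa1a* at 124 and 31.4 CPM and *Hspa1b* at 107 and 15.4 CPM.

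Of 20 complement and chemokine genes at 10 CPM in fibroblast-like cells, 4 were at least 4-fold higher in KO, *Il6*, *Ccl2*, *Ccl7* and *Cxcl1*, and 2 lower, *C4b* and *Cxcl14*. Over all genes the shares were 10.3% higher and 17.9% lower. *Il6*, the interleukin-6 gene, was at 7.54 and 733 CPM in fibroblast-like cells and at 7.75 and 0.810 CPM in smooth muscle-like cells. It was counted in 6 of 8 KO and 3 of 25 WT fibroblast-like cells of sort 1, the same numbers after thinning, and in the WT but not the KO cell of sort 2 (gene at chr5:30013114-30019981, + strand). *Ccl2*, a monocyte chemokine, was at 2.69 and 631 CPM in fibroblast-like cells, from 3 of 8 and 1 of 25 cells. *Cxcl1*, a neutrophil chemokine, was at 160.4 and 921 CPM, and *Has1*, a hyaluronan synthase, at 25.6 and 1185 CPM, in 7 of 8 KO and 6 of 25 WT cells. These genes were all higher in the KO sum, and in each the lowest KO cell was at 0, so that the cells of the genotypes overlapped.

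In the lipid and retinoid list and the Wnt and Notch list, more genes were lower in KO than higher. Of all genes, 10.3% were higher and 17.9% lower. Not every list did so: contractile genes had 2 higher and 0 lower, and growth factors 2 of each. Of 18 lipid and retinoid genes, 0 were at least 4-fold higher and 5 lower in KO fibroblast-like cells, *Adh1*, *Gpx3*, *Apod*, *Abca1* and *Fabp4*. *Adh1*, an alcohol dehydrogenase of retinol oxidation, was at 606 and 48.98 CPM, and *Gpx3*, a secreted glutathione peroxidase, at 1209 and 275 CPM. Both were counted in 3 of 8 KO cells of sort 1 and in 20 and 18 of 25 WT cells, and the KO cell of sort 2 had 623 CPM of *Adh1* and 2199 CPM of *Gpx3*. Of 14 Wnt and Notch genes 0 were higher and 5 lower, *Wnt5a* at 196 and 47.3 CPM among them. *Igfbp5*, which binds insulin-like growth factors, was at 2010.2 and 199 CPM in the sums. Its cell medians in sort 1 were 46.9 CPM in WT and 26.1 CPM in KO, with a count in 15 of 25 and 4 of 8 cells. The highest cell had 11898.5 CPM in WT and 3294 CPM in KO. Of 18 identity genes 1 was higher, *Dpp4*, a peptidase of adventitial fibroblasts, at 0.269 and 44.6 CPM, and 0 were lower. The *Dpp4* level in KO came from 1 of the 8 cells, at 917 CPM. The 4 collagens and proteoglycans of the score did not differ by 4-fold.

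The smooth muscle genes of the score were also higher in the KO fibroblast-like sum, all 4 by at least 4-fold. *Acta2* was found in 8 of 8 KO and 8 of 25 WT cells as counted, and in 5 of 8 and 6 of 25 after thinning to equal depth. Its level was 2.75 to 1325 CPM (median 157) in KO and 0 to 776 CPM (median 0) in WT fibroblast-like cells, and 0 in both cells of sort 2. The KO cells were the more deeply sequenced, with a median of 241480 counts against 112262. They also shared the KO plate with 31 smooth muscle-like cells, while WT fibroblast-like cells shared theirs with 16. The part of depth, plate and neighbouring wells in these differences was not tested. With 1 sum per genotype, the genotype and the plate cannot be told apart.

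**Figure D5:**
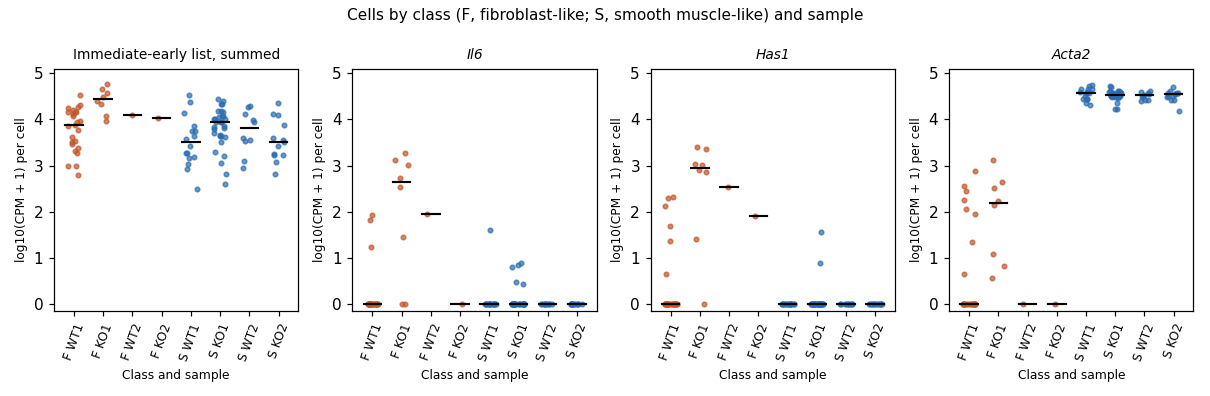
Level per cell as log10(CPM + 1) (y axis) of the summed immediate-early list, *Il6*, *Has1* and *Acta2*, by class (F, fibroblast-like; S, smooth muscle-like) and sample (x axis, WT or KO with the number of the sort), with medians as black bars. The 8 KO fibroblast-like cells of sort 1 have the highest median in the first 3 panels, and *Acta2* stays below every smooth muscle-like cell.

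The class difference itself was set against genotype. Of 7487 genes, 1985 (26.5%) had class differences at least 4-fold apart between WT and KO of sort 1, with no test. Each genotype had 1 fibroblast-like sum. Of the 17 identity genes the class difference was smaller in KO than in WT for 16, and of the 16 immediate-early genes it was higher in KO for 13, while over all genes it was higher in KO for 3202 of 7487 (42.8%).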

How the data were processed

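Single Cd45- Cd31- cells of the aorta were profiled by Smart-seq2. Per the submitters' processing notes and the methods, the authors aligned reads to GRCm38 with spike-in and EYFP sequences added (STAR 2.7.7a), removed duplicates (Picard 2.22.0) and counted reads per gene (HTSeq 0.9.1). The annotation release and strand setting are not given in the sources used here. The deposited table holds raw counts per gene and well, with 24422 genes, 92 spike-ins and 5 summary lines. In the 105 cells, summary lines took 44.9% and spike-ins 1.13% of counts, and neither entered a library size or a fit.

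Wells were grouped by the genotype and cell type labels. The members and gene lists were chosen with earlier results of these data known, some of them on these samples, so they are not independent evidence. Counts were summed per class and sample when 3 or more cells were present (1953407 to 7251739 counts in the sort 1 sums), scaled with TMM factors (0.930 to 1.09) and compared as log2(CPM + 1), pseudocount 1. Named genes were the 12 per direction with the largest smallest difference over both samples, the list members, and for genotype tests up to 5 per direction with the smallest adjusted *P*, with *Amotl2* and EYFP. Genotype was tested with edgeR 4.0.16 (glmQLFit and glmQLFTest, filterByExpr, two-sided, Benjamini-Hochberg) in R 4.3.3. DESeq2 1.42.0 was an alternative. The script was tested on simulated data. The planned tests of genotype in fibroblast-like cells and of class by genotype with the sample as a block had 1 fibroblast-like sum per genotype, so folds are given instead. The labels give both genotypes the same sort numbers and do not say that a number marks a shared preparation, so samples were not taken as paired. The paper states 2 independent experiments, and WT and KO of sort 2 shared a plate, so a fit with the sort as block was an alternative. *P* values measure the spread between 2 preparations per genotype, which may be technical. Single-cell values and sort 2 values are CPM without scaling factors, and detection was compared after thinning to 20000 counts. Reads carry no molecular identifiers, so intervals and floors (3 counts) cover counting error only. Doublets were not called. Of the cells kept, 0 lay between the classes, but a well with a score of -0.06 had been set aside for its *Cdh5* counts. The gap therefore does not bear on doublets. Alternatives were another scaling, pseudocount, filter, fold, cell selection and weighting, and leaving out each sample. Gene coordinates are GENCODE M21 (GRCm38) and promoter windows RefSeq (GRCm38.p6). Figures were drawn with matplotlib 3.10.9 in Python 3.11.15.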

Additional observations from a re-analysis of the deposited data

Results flagged for a closer look

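For 2 heat-shock genes the class difference, fibroblast-like minus smooth muscle-like on the log2(CPM + 1) scale, had opposite signs in the genotypes of sort 1. For *Hspa1a* it was 1.28 in WT and -1.67 in KO, and for *Hspa1b* 1.14 and -1.44. The genes are near-identical copies, and there was 1 fibroblast-like sum per genotype, so the difference was not tested.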

How the results depend on the processing

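In both directions the class counts moved by over 1.5 times with a pseudocount of 10 (289 higher in fibroblast-like and 255 in smooth muscle-like cells), with a log2 limit of 1 (1040 and 1115), and with 1 sample of sort 1 left out (1363 to 1542 and 1247 to 2061). They stayed within 1.5 times under the other alternatives run, but the members changed. With cells thinned to 20000 counts, 412 of the 537 fibroblast-side and 413 of the 580 smooth muscle-side genes were kept. With the mean CPM over cells 447 and 439 were kept, and in both settings 0 of the called genes were reversed. The pooled share of fibroblast-like cells was 33.3%, and 15.6 to 40.9% with 1 sample left out, the lowest without WT sort 1. With 100000 or more counts per cell the share in WT sort 2 was 0 (of 5 cells). Median genes per cell were 3939 and 3777.5 as counted. For KO against WT in smooth muscle-like cells, the counts of called genes were 0 in edgeR, 1 without a filter on low counts, 11 with DESeq2, and 0 to 13 with 1 sample left out (13 without WT sort 2, 7 without WT sort 1, 5 without KO sort 1). A lone sample is then assumed to vary like the other genotype. With the sort as replicate block the count was 0, and the deviations of same-numbered samples had a correlation of 0.0283, so the pairing is not given by the data. The class-by-genotype count was 4733 without a minimum CPM and 37 genes (4 of them score genes) were past the threshold in a fit without a sample block. That fit takes its spread from the smooth muscle-like sums alone, with 1 fibroblast-like sum per genotype, so it is not read as a test. The cause of these changes was not tested. DESeq2, blocked and leave-one-out fits were not run for fibroblast-like genotype and class by genotype, which have 1 sum per genotype, and leaving out sort 2 changes no class count, since it was not used.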
